A study of Cucumis melo with 9 samples.

Results

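The C-repeat binding factors (CBF) and dehydration-responsive element binding factors (DREB) form a branch of the AP2/ERF transcription factors. 7 genes of ripe melon fruit were examined out of 29980 in the deposited table. They were taken from a list of gene identifiers that holds CmCBF1, 4 further genes described as DREB factors and 2 genes described as dehydration-responsive family proteins. The study shows the last pair beside DREB factors. RNA was sequenced from fruit of 'HT', a climacteric oriental melon cultivar, in 3 groups of 3 replicates, and each replicate held 3 fruits. Recovered fruit (Group A) spent 7 d in storage at 4°C followed by 1 d near 22°C, chilled fruit (Group B) spent all 8 d at 4°C, and unchilled fruit (Group C) were harvested on day 8 and not stored. Chilled and recovered fruit differ in the last day, whereas both differ from unchilled fruit in storage and in harvest date, and these cannot be told apart. No library was made from the first days of storage.

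CBF proteins of the DREB1 subgroup bind the C-repeat/dehydration-responsive element in promoters of cold-regulated genes. In Arabidopsis, cold raises their transcripts within hours through the bHLH factor ICE1 and calmodulin-binding transcription activators (CAMTA), and the rise is transient. Proteins of the DREB2 subgroup bind the same element and are best known from drought and heat responses. Levels are given as FPKM (fragments per kilobase of gene, relative to the counted total) divided by the TMM scaling factor of the library, which adjusts for a few very abundant transcripts. Levels of different genes are therefore compared per length. A difference was called where the log2 fold change exceeded 1 in either direction with an adjusted p-value below 0.05 over 15022 tested genes, with edgeR's quasi-likelihood test and Benjamini-Hochberg adjustment.

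The label was checked against the gene ontology terms of the table. All 5 genes described as CBF or DREB factors carry terms for DNA-binding transcription factors. The 2 dehydration-responsive family proteins carry methyltransferase terms and no term for DNA binding, so they are treated below as a pair of their own. All 7 genes passed the filter of a mean FPKM above 1. 5 further genes of the table bear CBF or DREB names and are described at the end of the results on the transcription factors.

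Depth was 15508367 to 19011486 counts per library. The TMM factors were 0.764 to 0.8084 in chilled libraries and 1.111 to 1.134 in the other libraries, so that scaling by library totals instead shifted the median log2 fold change of all genes from -0.06 to -0.56 between chilled and unchilled fruit and from -0.02 to 0.49 between recovered and chilled fruit. The calls between chilled and unchilled fruit were then 2241 higher and 5688 lower, in place of 3318 higher and 3931 lower. Ripe-fruit markers were detected in all libraries but were lower in the cold. The ester-forming enzyme CmAAT1 stood at 296 to 337 in chilled, 1745 to 2262 in unchilled and 2033 to 2833 in recovered fruit. The ripening regulator CmNOR stood at 23.8 to 27.8, 684 to 917 and 1000 to 1277, and the ethylene-forming enzyme CmACO1 at 466 to 593, 1057 to 1423 and 633 to 2421. Summed transcripts of 142 genes with descriptions of plastid-type photosystem, NAD(P)H-quinone oxidoreductase, Ycf and related proteins, some of them nuclear genes, were 887 to 959 in chilled fruit against 559 to 675 in unchilled and 529 to 625 in recovered fruit, with 78 of them at 0. Summed levels of 21 seed storage and oil body proteins were 141 to 181 in chilled, 84.3 to 97.9 in unchilled and 41.6 to 42.8 in recovered fruit, with 5 at 0. Those of 18 phloem proteins were 234 to 316, 299 to 551 and 79.7 to 109, with 3 at 0, and those of 39 cutin and wax enzymes were 556 to 986, 1213 to 3877 and 586 to 1275, with 3 at 0. In unchilled fruit these last sums held 206, 423 and 285 from a 26 kDa phloem lectin (MELO3C002874.2) and 1204, 351 and 362 from ECERIFERUM 1-like (MELO3C006254.2). Single genes thus weigh on the sums. Between chilled and unchilled fruit, 4 of 9 tested phloem genes were called higher and 4 lower (88.9%). Of 26 tested cutin and wax genes, 3 were higher and 8 lower (42.3%, against 48.3% of all tested genes). The part of these sets in the results below was not tested, and in bulk fruit tissue fewer cells of a type and less RNA per cell cannot be told apart.

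The 5 transcription factors fell into 2 patterns. After 8 d of cold, CmCBF1, DREB1D-like and the DREB factor MELO3C019763.2 were lower than in unchilled fruit, whereas DREB2C and the DREB factor MELO3C026025.2 were higher. After 1 d at room temperature, MELO3C019763.2, DREB2C and MELO3C026025.2 were back near their levels in unchilled fruit. DREB1D-like remained lower than in unchilled fruit, and CmCBF1 differed strongly among the recovered libraries.

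**Figure D1:**
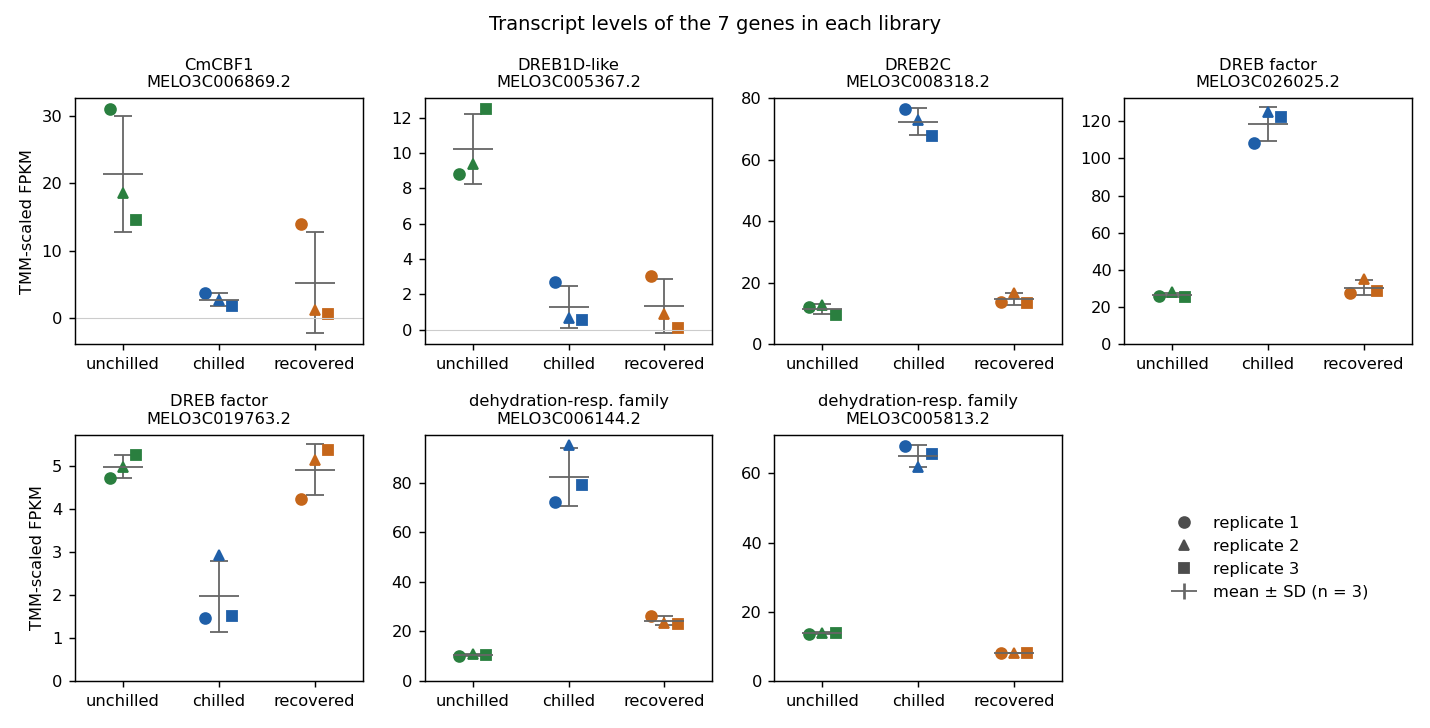
Transcript levels (TMM-scaled FPKM, linear axes) of the 7 genes in unchilled, chilled and recovered fruit, with a symbol for each replicate, a horizontal bar for the mean and whiskers for the SD (n = 3). 4 genes peak in chilled fruit, 3 are lowest or low there, and CmCBF1 ranges from 0.659 to 13.9 among the recovered libraries.

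CmCBF1 (MELO3C006869.2, described as CRT/DRE-binding factor 1) lies on chromosome 6 from 6858149 to 6858787 on the minus strand. Coordinates are those of the deposited table, whose build the study's methods give as the DHL92 melon genome. CmCBF1 stood at 31, 18.5 and 14.5 in the unchilled libraries, at 3.69, 2.73 and 1.75 in the chilled libraries, and at 13.9, 1.26 and 0.659 in the recovered libraries. All chilled libraries were below all unchilled libraries. Among recovered libraries, replicate 1 was close to the lowest unchilled library and the others were below all chilled ones. CmCBF1 was 7.88-fold lower in chilled than in unchilled fruit (log2 fold change -2.98, SE 0.994, adjusted p = 0.0229 by edgeR's quasi-likelihood test). The call was lost without chilled replicate 2 (adjusted p = 0.0606), chilled replicate 3 (0.0729) or unchilled replicate 1 (0.065), at log2 fold changes of -2.99, -2.73 and -2.62.

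Between recovered and chilled fruit, CmCBF1 did not pass the test (log2 fold change 0.95, 95% interval -1.35 to 3.25, adjusted p = 0.406 by edgeR). Without recovered replicate 1 the sign turned, and CmCBF1 was called lower in recovered than in chilled fruit (log2 fold change -1.50, adjusted p = 0.0298). Between recovered and unchilled fruit the libraries did not overlap, but the log2 fold change of -2.02 (95% interval -4.11 to 0.06) did not pass either (adjusted p = 0.117). Without recovered replicate 1 it was -4.48 (adjusted p = 0.000767).

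DREB1D-like (MELO3C005367.2, chromosome 9, 20926191 to 20926796, minus strand) is a gene of the CBF/DREB1 subgroup by its description. Its levels were 8.81, 9.4 and 12.5 in unchilled, 2.68, 0.655 and 0.542 in chilled, and 3.02, 0.883 and 0.0772 in recovered libraries. These rest on few reads in the cold, with 20, 5 and 5 counts in chilled and 34, 10 and 1 in recovered libraries. Every stored library, with or without the day at room temperature, was below every unchilled library. DREB1D-like was lower in chilled than in unchilled fruit by a log2 fold change of -3.01 (SE 0.87, adjusted p = 0.0115) and lower in recovered than in unchilled fruit by -2.96 (SE 0.835, adjusted p = 0.0234), both by edgeR's quasi-likelihood test. The difference between recovered and chilled fruit was 0.04 with a wide 95% interval of -2.12 to 2.21 (adjusted p = 0.97). Without recovered replicate 2 or unchilled replicate 3, the call between recovered and unchilled fruit was lost (adjusted p = 0.0748 and 0.065). Without chilled replicate 1 the difference between chilled and unchilled fruit was -4.08, and without recovered replicate 1 that between recovered and unchilled fruit was -4.44.

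Both genes of the CBF/DREB1 subgroup had their highest level in replicate 1 and their lowest in replicate 3, in chilled as in recovered fruit. In unchilled fruit the order was opposite for the pair, with CmCBF1 highest and DREB1D-like lowest in replicate 1. The replicate numbers name samples only and are not known to link fruit of different groups. Within recovered fruit the highest library exceeded the lowest by 21.1-fold for CmCBF1 and by 39.2-fold for DREB1D-like. The ratio of CmCBF1 to DREB1D-like within a library spanned 1.42 to 8.54 in recovered, 1.38 to 4.17 in chilled and 1.16 to 3.52 in unchilled fruit, and these ranges overlap.

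DREB2C (MELO3C008318.2, chromosome 3, 3596140 to 3598656, minus strand) is named for a DREB2 factor that in Arabidopsis responds to heat. Its level was 12, 12.8 and 9.54 in unchilled, 76.3, 73 and 67.7 in chilled, and 13.6, 16.8 and 13.3 in recovered libraries. The chilled libraries were all far above the rest, and the recovered libraries lay just above the unchilled ones. DREB2C was 6.32-fold higher in chilled than in unchilled fruit (log2 fold change 2.66, SE 0.136, adjusted p = 1.84e-07) and fell by 2.31 on the log2 scale from chilled to recovered fruit (SE 0.134, adjusted p = 3.39e-07 by edgeR). Although the recovered and unchilled libraries did not overlap, their difference of 0.35 (95% interval 0.05 to 0.64) was not called (adjusted p = 0.0655).

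MELO3C026025.2, described as a DREB transcription factor, lies on chromosome 8 from 29025393 to 29028682 on the plus strand. It had the highest mean level of the 7 genes in each group, with 26, 28 and 25.6 in unchilled, 108, 125 and 122 in chilled, and 27.6, 34.9 and 28.6 in recovered libraries. The chilled libraries again stood apart, and recovered and unchilled libraries overlapped. The log2 fold change was 2.16 for chilled against unchilled (SE 0.108, adjusted p = 1.62e-07) and -1.97 for recovered against chilled fruit (SE 0.107, adjusted p = 2.41e-07 by edgeR). Recovered and unchilled fruit differed by 0.19 (95% interval -0.04 to 0.43, adjusted p = 0.18).

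MELO3C019763.2 has the same description and lies on chromosome 11 from 22776482 to 22778869 on the minus strand. It moved the other way, with 4.72, 4.97 and 5.26 in unchilled, 1.46, 2.92 and 1.52 in chilled, and 4.24, 5.13 and 5.37 in recovered libraries. All chilled libraries were below all others, and recovered and unchilled libraries overlapped. Its log2 fold change was -1.34 for chilled against unchilled (SE 0.275, adjusted p = 0.00151) and 1.32 for recovered against chilled fruit (SE 0.275, adjusted p = 0.00157 by edgeR). Between recovered and unchilled fruit the value was -0.02 (95% interval -0.60 to 0.55, adjusted p = 0.959). An unnamed gene model, MELO3C035115.2, overlaps this gene by 495 bases on the same strand and holds 25 counts over all 9 libraries.

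The 2 genes with the same description thus moved in opposite directions in the cold. The level of MELO3C026025.2 relative to MELO3C019763.2 within a library, which does not depend on scaling between libraries, was 4.86 to 5.64 in unchilled, 42.9 to 80.6 in chilled and 5.33 to 6.81 in recovered fruit. That ratio follows from the opposite directions of the pair and is given as a description. In chilled libraries it divides by a low level, with 21, 43 and 27 counts of MELO3C019763.2. The ratio of MELO3C026025.2 to DREB2C, which moved the same way, was 1.42 to 1.81 in chilled, 2.03 to 2.15 in recovered and 2.17 to 2.68 in unchilled fruit. These ranges did not overlap between any of the groups, so the ratio was lowest in the cold.

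The other 5 genes with CBF or DREB names had few or no counts. C-repeat binding factor 2 (MELO3C009442.2), DREB1E (MELO3C005629.2), DREB2D (MELO3C010977.2) and the DREB factor MELO3C026024.2 had 0 of 150860859 counts, which allows up to 0.0199 CPM for counting error alone. MELO3C026024.2 lies 9760 bases beyond MELO3C026025.2 on the same strand, wholly within the span of MELO3C026023.2 on the opposite strand. Whether reads of these overlapping models were told apart is not known, so the 0 counts of MELO3C026024.2 say little of its expression. DREB2F (MELO3C009669.2) had 1, 3 and 4 counts in chilled, 1, 0 and 1 in unchilled and no counts in recovered libraries. It was 5.39-fold higher in chilled than in unchilled fruit with a counting interval of 1.08 to 52.1, and was too low to enter the test. The gene after CmCBF1, 13587 bases away, is also an AP2/ERF gene, ERF027 (MELO3C006870.2). ERF027 had 26, 27 and 13 counts in unchilled, 0, 0 and 0 in chilled, and 5, 3 and 0 in recovered libraries. With its chilled libraries together set to a floor of 3 counts, it was at least 16.3-fold lower there than in unchilled fruit. It too was below the filter of the test.

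The dehydration-responsive family proteins are annotated as methyltransferases. In Arabidopsis, proteins of this family include Golgi enzymes of pectin synthesis. Both were among the 4 of the 7 genes that were higher in chilled fruit, but they differed after rewarming. The study displays these genes, DREB2C and MELO3C026025.2 together in a heat map of the same samples, so their common direction is not independent evidence.

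MELO3C006144.2 (chromosome 6, 1301773 to 1306106, minus strand) stood at 10.2, 11 and 10.6 in unchilled, 72.5, 95.3 and 79.3 in chilled, and 26.4, 23.5 and 23.2 in recovered libraries. The 3 groups did not overlap, and the recovered libraries lay between the others. The gene was 7.74-fold higher in chilled than in unchilled fruit (log2 fold change 2.95, SE 0.115, adjusted p = 4.59e-08) and fell by 1.76 from chilled to recovered fruit (SE 0.109, adjusted p = 5.06e-07 by edgeR). It was still 2.29-fold higher in recovered than in unchilled fruit (log2 fold change 1.19, SE 0.109, adjusted p = 0.000139). Its end overlaps a UBX domain gene, MELO3C006143.2, by 32 bases on the opposite strand, and that neighbour was not called in any comparison (log2 fold change 0.69 for chilled against unchilled fruit).

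MELO3C005813.2 (chromosome 9, 24486403 to 24490732, plus strand) stood at 13.6, 14 and 13.9 in unchilled, 68, 61.8 and 65.5 in chilled, and 8.07, 8.05 and 8.07 in recovered libraries. Again no groups overlapped, but here the recovered libraries were the lowest. The gene was 4.71-fold higher in chilled than in unchilled fruit (log2 fold change 2.24, SE 0.0683, adjusted p = 1.89e-08) and fell by 3.01 from chilled to recovered fruit (SE 0.0707, adjusted p = 8.92e-09 by edgeR). Recovered fruit were below unchilled fruit by a log2 fold change of -0.78 (95% interval -0.93 to -0.63, adjusted p = 0.000108), which is under the fold threshold and was not called.

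The pair therefore changed their relation to each other. The ratio of MELO3C006144.2 to MELO3C005813.2 within a library was 0.756, 0.79 and 0.761 in unchilled, 1.07, 1.54 and 1.21 in chilled, and 3.28, 2.91 and 2.87 in recovered fruit. Every recovered library had a higher ratio than every chilled library, and every chilled library a higher one than every unchilled library. The ratio is given as a description, since recovered and unchilled libraries of both genes were already apart in opposite directions.

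**Figure D2:**
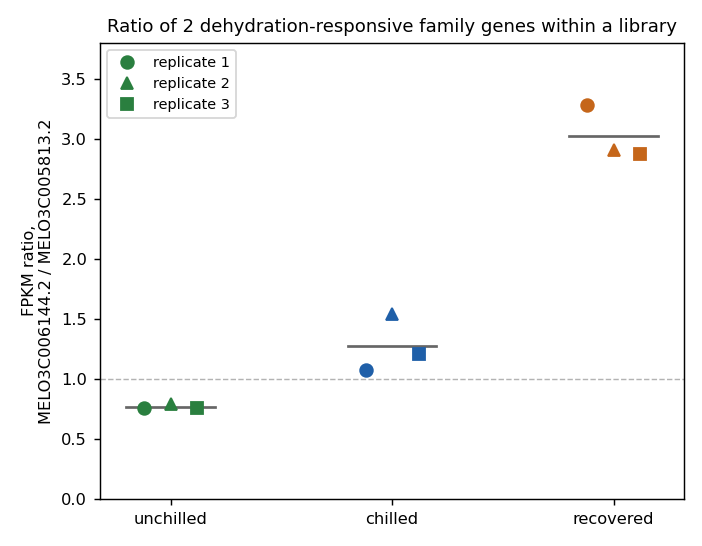
Ratio of the FPKM of MELO3C006144.2 to that of MELO3C005813.2 within each library (linear axis), with a symbol for each replicate, a bar for the mean of 3 libraries and a dashed line at 1. The ratio is below 1 in unchilled fruit, 1.07 to 1.54 in chilled fruit and 2.87 to 3.28 in recovered fruit.

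Between chilled and unchilled fruit, 4 of the 7 genes were called higher and 3 lower, where 48.3% of all tested genes were called, 22.1% higher and 26.2% lower. The libraries of the 2 groups did not overlap for any of the 7 genes, which also held for 78.3% of all tested genes. Between recovered and chilled fruit, 1 gene was called higher, 4 lower and 2 were not called, against 50.4% of all tested genes called, 25.1% higher and 25.3% lower, and libraries did not overlap for 5 of the 7 genes and 79.9% of all. Between recovered and unchilled fruit, 1 was called higher, 1 lower and 5 were not called, against 12.8% of all tested genes, 3.66% higher and 9.15% lower, and libraries did not overlap for 5 of the 7 genes and 52.9% of all. The median log2 fold changes of the 7 genes were 2.16, -1.76 and -0.02. Those of all tested genes were -0.06, -0.02 and 0.01. The medians of the 7 genes pool the methyltransferase pair with the transcription factors. In the same order, the 5 factors alone had medians of -1.34, 0.04 and -0.02, and the pair 2.59, -2.39 and 0.21. Of the factors, the first comparison called 2 higher and 3 lower, and the second 1 higher and 2 lower. The third called 0 higher and 1 lower. The 3 comparisons share their libraries and are not independent of each other. Scaling by library totals changed no call among the 7 genes, with log2 fold changes between chilled and unchilled fruit of 1.66 for MELO3C026025.2, 2.16 for DREB2C, 2.46 for MELO3C006144.2 and 1.73 for MELO3C005813.2.

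**Figure D3:**
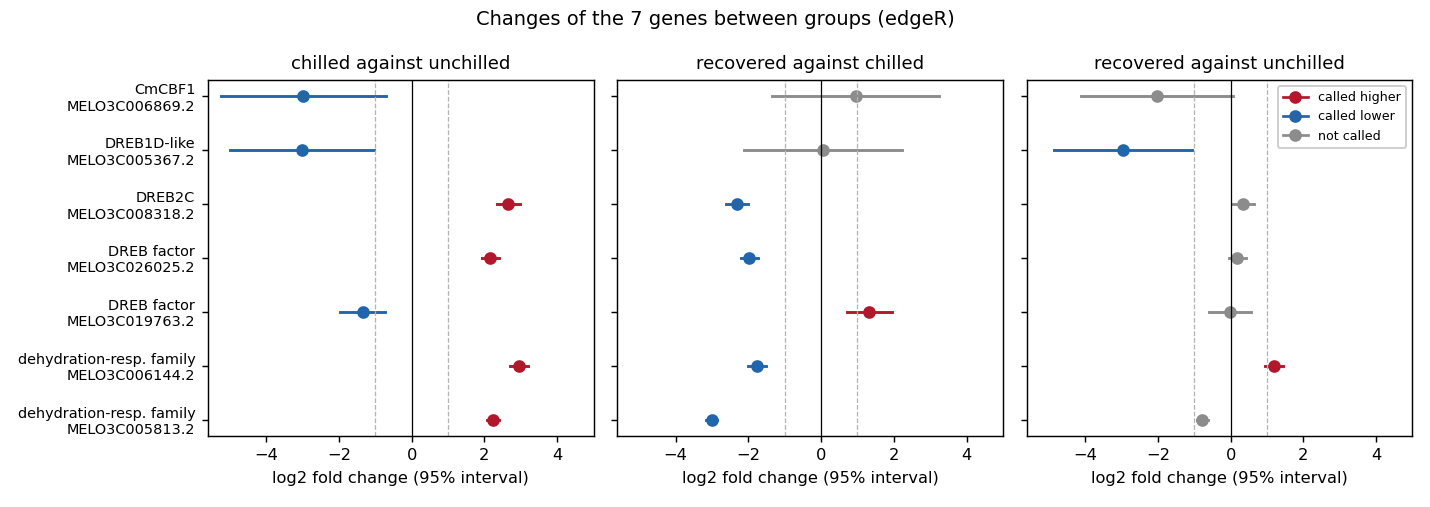
Log2 fold change (point) and 95% interval (line) of each of the 7 genes in 3 comparisons by edgeR, with dashed lines at -1 and 1 and colours for genes called higher, called lower or not called. Intervals are wide for CmCBF1 and DREB1D-like, and MELO3C006144.2 is the gene called higher in recovered than in unchilled fruit.

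The order of the levels changed in the cold. In unchilled fruit MELO3C026025.2 (26.5 ± 1.3, SD, n = 3) and CmCBF1 (21.3 ± 8.6) were the most abundant, and their libraries overlapped. MELO3C005813.2 (13.8 ± 0.226) followed without overlap with CmCBF1, and DREB2C (11.4 ± 1.69), MELO3C006144.2 (10.6 ± 0.4) and DREB1D-like (10.2 ± 1.99) overlapped in sequence. MELO3C019763.2 (4.98 ± 0.272) was the lowest. In chilled fruit the 4 genes higher in the cold led, from MELO3C026025.2 (119 ± 9.12) through MELO3C006144.2 (82.4 ± 11.7) and DREB2C (72.3 ± 4.34) to MELO3C005813.2 (65.1 ± 3.13). Only the first of these did not overlap with its neighbour. CmCBF1 (2.72 ± 0.972), MELO3C019763.2 (1.97 ± 0.828) and DREB1D-like (1.29 ± 1.21) formed a low group in which neighbours overlapped. Among all tested genes, the level of CmCBF1 stood at the 64.7th percentile in unchilled and at the 20.5th in chilled fruit, and that of MELO3C026025.2 at the 71st and the 91.2nd. In recovered fruit MELO3C026025.2 (30.4 ± 3.99), MELO3C006144.2 (24.4 ± 1.8) and DREB2C (14.6 ± 1.91) did not overlap with each other. CmCBF1 (5.27 ± 7.48) ranged from 0.659 to 13.9. It overlapped with DREB2C, whose lowest library was at 13.3, and with MELO3C005813.2 (8.06 ± 0.00831) and MELO3C019763.2 (4.91 ± 0.593). DREB1D-like (1.33 ± 1.52) had the lowest mean and also overlapped with CmCBF1.

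The spread between replicates differed widely among the 7 genes. The biological coefficient of variation estimated by edgeR, the part of the spread beyond counting error, was 0.77 for CmCBF1 and 0.741 for DREB1D-like. These lie at the 99.6th and 99.5th percentiles of the dispersions of all tested genes, and 64 genes had a higher dispersion than CmCBF1. The median over all tested genes was 0.151. MELO3C019763.2 (0.196) and DREB2C (0.128) lay nearer to it, and MELO3C006144.2 (0.116) and MELO3C026025.2 (0.113) were less variable. MELO3C005813.2 had a value of 0.0905, and 165 genes had a lower dispersion. The fold changes of CmCBF1 and DREB1D-like are therefore the least precise of the 7, with intervals that span over 3 units on the log2 scale.

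**Figure D4:**
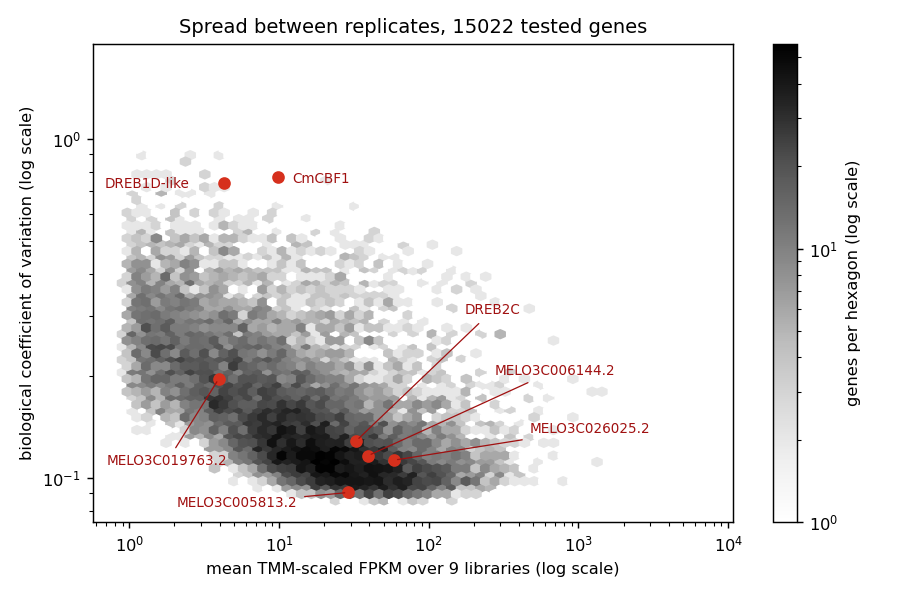
Biological coefficient of variation against mean TMM-scaled FPKM over 9 libraries (both axes logarithmic) for all tested genes, with darker hexagons holding more genes and red points for the 7 genes. CmCBF1 (0.77) and DREB1D-like (0.741) lie above nearly all genes of like level, and MELO3C005813.2 (0.0905) lies at the lower edge.

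Genes described as ICE or CAMTA, named for upstream activators of CBF genes in Arabidopsis, changed in both directions. Of 7 ICE and CAMTA genes, 6 were tested. Between chilled and unchilled fruit 2 were called higher, 1 lower and 3 were not called, or 50% against 48.3% of all tested genes, with a median log2 fold change of 0.62. ICE1 in Arabidopsis is a bHLH activator of CBF genes, and both melon genes with this description were higher in chilled fruit. The first, MELO3C002385.2, stood at 6.14, 3.51 and 4.06 in unchilled, 8.11, 11.3 and 11.8 in chilled, and 9.3, 14.1 and 12.3 in recovered libraries. All stored libraries were above all unchilled libraries. Its log2 fold change was 1.19 for chilled against unchilled (adjusted p = 0.00167) and 1.38 for recovered against unchilled fruit (adjusted p = 0.00274 by edgeR), and under library totals the former was 0.70 and no longer called, as with limma on unscaled FPKM (0.61 or 0.70).

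The second ICE1 gene, MELO3C014812.2, stood at 3.28, 1.47 and 1.53 in unchilled, 13, 5.46 and 6.97 in chilled, and 1.51, 3.66 and 2.37 in recovered libraries. It was higher in chilled than in unchilled fruit (log2 fold change 2.02, adjusted p = 0.00357) and lower in recovered than in chilled fruit (-1.75, adjusted p = 0.00676 by edgeR), although with limma at a pseudocount of 1 these were 1.18 and -0.98, the latter not called. CAMTA proteins bind calmodulin and activate CBF genes in Arabidopsis. The CAMTA gene MELO3C021280.2 was the reverse of it, with 78.6, 67.4 and 74.2 in unchilled, 30.7, 35.1 and 34.5 in chilled, and 102, 107 and 104 in recovered libraries. It was lower in chilled than in unchilled fruit (-1.14, adjusted p = 1.92e-06) and higher in recovered than in chilled fruit (1.64, adjusted p = 2.01e-07 by edgeR). The other CAMTA genes, MELO3C003208.2, MELO3C018642.2 and MELO3C022312.2, had log2 fold changes of 0.69, 0.54 and 0.09 in the cold and were not called. The first 2 missed only the fold threshold (adjusted p = 6.48e-05 and 0.00451 by edgeR), whereas the last had an adjusted p of 0.451.

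A further list held 21 genes that share names or families with other regulators of the CBF pathway in Arabidopsis. A role of these melon genes in CBF regulation was not tested. Of the 15 tested, 4 were called higher and 6 lower in the cold, relative to unchilled fruit (66.7%, against 48.3% of all tested genes). Their median log2 fold change was -0.71. Under library totals the counts were 2 and 8. In Arabidopsis, EIN3 of the ethylene pathway and clock-associated response regulators repress CBF genes, and the ubiquitin ligase HOS1 marks ICE1 for degradation. EIN3 (MELO3C015633.2) was 140, 142 and 142 in unchilled, 971, 959 and 996 in chilled, and 189, 197 and 211 in recovered libraries, with a log2 fold change of 2.78 in the cold (adjusted p = 2.29e-08 by edgeR). APRR5 (MELO3C005921.2) was higher in the cold by 2.30 (adjusted p = 1.95e-07), at 223 ± 7.15 in chilled and 45.1 ± 3.11 in unchilled fruit (SD, n = 3). HOS1 (MELO3C005513.2) was 48.8 ± 1.38 in chilled and 18.4 ± 0.369 in unchilled fruit, a log2 fold change of 1.41 (adjusted p = 1.28e-07), or 0.91 and not called under library totals, as with limma. All 3 were lower again in recovered than in chilled fruit, with log2 fold changes of -2.29, -2.22 and -1.27, of which the last was not called under library totals (-0.77) or with limma.

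The genes of this list that fell most in the cold were protein kinases and a light-signalling factor. A CBL-interacting kinase (MELO3C035201.2), of the family that relays calcium signals, stood at 77.5, 125 and 129 in unchilled, 3.72, 3.61 and 3.3 in chilled, and 154, 139 and 210 in recovered libraries. Its log2 fold change was -4.96 in the cold (adjusted p = 2.13e-07) and 5.57 after rewarming (adjusted p = 1.24e-07 by edgeR). SRK2G-like (MELO3C003290.2), of the SnRK2 family whose member OST1 phosphorylates ICE1 in Arabidopsis, changed by -3.22 and 3.28. PIF3 (MELO3C031303.2), a phytochrome-interacting factor that represses CBF genes in Arabidopsis, changed by -2.63 and 2.13.

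**Figure D5:**
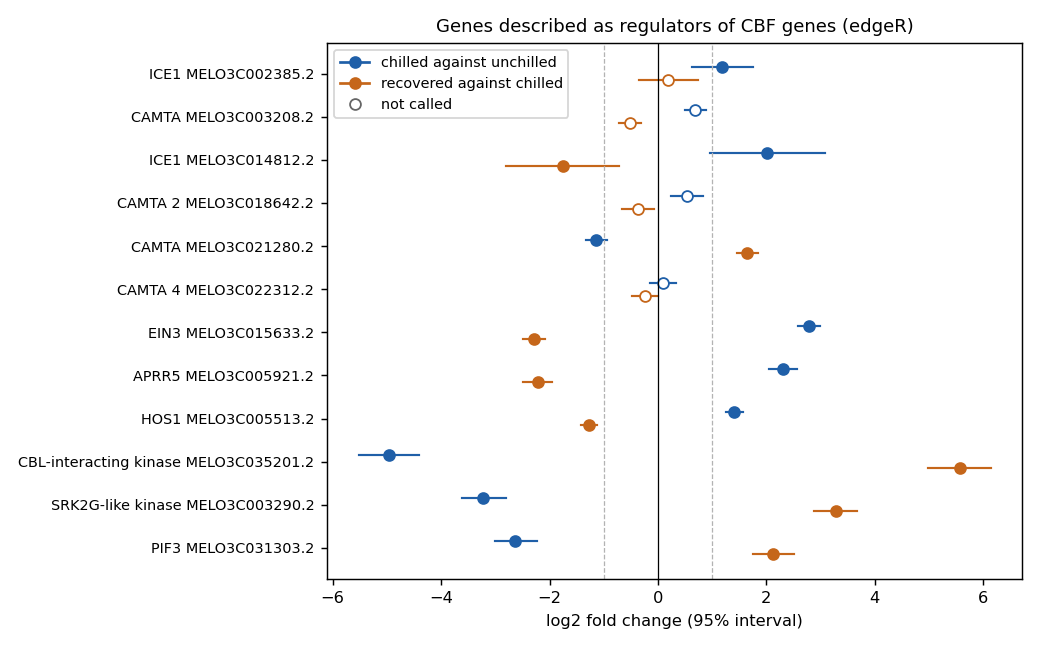
Log2 fold change (point) and 95% interval (line) by edgeR for chilled against unchilled fruit and recovered against chilled fruit. Shown are genes described as ICE or CAMTA and named genes that share names or families with other Arabidopsis regulators of the CBF pathway. Open points were not called; dashed lines mark -1 and 1. EIN3, APRR5 and HOS1 are higher and the 2 kinases and PIF3 lower in chilled fruit, with the opposite sign after rewarming.

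The genes of the kinds that CBF factors activate in Arabidopsis were taken as those with late embryogenesis abundant (LEA), dehydrin and cold-regulated descriptions. Of 89 such genes, 44 were tested and 18 had no count in any library. Between chilled and unchilled fruit 12 were called higher and 13 lower (56.8%, near the 48.3% of all tested genes, of which 22.1% were higher and 26.2% lower), with a median log2 fold change of -0.09, and under library totals 9 and 18. LEA proteins protect cells during drying. The LEA D-29-like gene MELO3C016388.2 was 0.391, 0.538 and 0.186 in unchilled and 145, 70.1 and 59.7 in chilled libraries, and had 2 counts in recovered fruit against 1060 in chilled fruit. Its log2 fold change in the cold was 7.84 (adjusted p = 2.41e-06 by edgeR). MELO3C016387.2, also a D-29 gene, was 11.2 ± 3.99 in chilled and 0.674 ± 0.268 in unchilled fruit (SD, n = 3). MELO3C019755.2, a LEA domain gene and also among the highest, had 12.7, 34.7 and 25.3 in chilled libraries and at most 0.197 in unchilled ones.

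The LEA genes that fell most were also lower in recovered than in unchilled fruit. They were named for their fall in the cold. Both comparisons use the same unchilled libraries and are not independent. MELO3C010846.2 was 10.6, 16.1 and 18.5 in unchilled, 0.781, 1.8 and 2.39 in chilled, and 5.39, 1.28 and 0.866 in recovered libraries. It was lower than in unchilled fruit both in chilled (log2 fold change -3.17, adjusted p = 0.00265) and in recovered fruit (-2.60, adjusted p = 0.0149 by edgeR). MELO3C015630.2 was also lower in both (-2.23 and -2.59), with 14.3, 2.43 and 2.2 in recovered libraries. Without recovered replicate 1 the differences between recovered and unchilled fruit were -3.81 and -4.02. In both genes recovered replicate 1 was the highest of its group, as it was for CmCBF1. LEA-14 (MELO3C007566.2) had log2 fold changes against unchilled fruit of -4.51 in chilled and -2.78 in recovered samples. These rest on few reads, with 3, 6 and 0 counts in chilled and 15, 20 and 10 in recovered libraries. Unchilled libraries had 69, 69 and 152. The change in the cold was -5.51 without chilled replicate 2 and -3.87 without chilled replicate 3. Between recovered and chilled fruit LEA-14 had a log2 fold change of 1.73 and was not called by edgeR (adjusted p = 0.0721), but was called higher with DESeq2 (1.75), library totals (2.23), limma at 0.1 (1.98) and without chilled replicate 2 (2.73).

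Of 137 other AP2/ERF genes, 58 were tested, of which 20 were called higher and 23 lower in the cold, relative to unchilled fruit (74.1%, against 48.3% of all tested genes), or 17 and 29 under library totals. The list's median log2 fold change was -0.66. The highest were ABR1 (MELO3C008014.2), named for a repressor of abscisic acid responses in Arabidopsis, ERF054 (MELO3C018744.2) and ERF113-like (MELO3C008331.2). ABR1 had levels of 796, 309 and 194 in chilled libraries, with 20307 counts in chilled and 2 in unchilled fruit. ERF113-like was 142, 108 and 98.2 in chilled, 0.258, 0.414 and 0.523 in unchilled, and 0.419, 0.952 and 0.52 in recovered libraries (log2 fold change in the cold 8.16, adjusted p = 6.82e-08 by edgeR). Among the lowest, ERF061-like (MELO3C005747.2) was 28.3, 15.1 and 18.3 in unchilled, 0.796, 1.14 and 1.29 in chilled, and 2.11, 1.53 and 0.633 in recovered libraries. ERF061-like thus stayed low after rewarming (log2 fold change -3.86 for recovered against unchilled fruit, adjusted p = 0.000271 by edgeR). It too was named for its fall in the cold, measured against the same unchilled libraries. ERF109 (MELO3C019506.2) was 63.5, 32.5 and 24.8 in unchilled, 1.4, 1.95 and 3.4 in chilled, and 23, 1.36 and 0.722 in recovered libraries, with recovered replicate 1 again far above the others. ERF106 (MELO3C017645.2) was lower in the cold (log2 fold change -4.95) and higher after rewarming (4.99). Both values rest on 3, 2 and 4 counts in chilled libraries. The counts were 189, 140 and 54 in unchilled and 168, 74 and 191 in recovered libraries. Among 8 tested genes of 12 others with dehydration in their description, 2 were called lower and 6 were not called in the cold (25%, against 48.3%), and DESeq2 called 1 of them higher. One of the lower genes was DEHYDRATION-INDUCED 19 (MELO3C015275.2), with 29.6 ± 1.94 in unchilled and 7.23 ± 0.379 in chilled fruit.

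Likeness of pattern was measured as the root mean square difference between log2(TMM-scaled FPKM + 1) values, each centred on the gene's own mean, over 9 libraries and 10906 genes with a level of at least 5. It is a description, and the libraries share their depth and scaling. Like genes were picked over these same 9 libraries, so a pattern shared with the listed gene follows from the choice. The genes most like CmCBF1 were Harpin inducing protein 1-like 9 (MELO3C024581.2, difference 0.325), mitochondrial uncoupling protein 5-like (MELO3C011101.2, 0.346) and ethylene-responsive factor 8 (MELO3C002624.2, 0.4). In recovered libraries these stood at 38.1, 7.02 and 3.43, at 5.92, 0.226 and 0.198, and at 33.1, 5.29 and 3.8. All 3 thus had recovered replicate 1 well above the other recovered libraries. The genes most like DREB1D-like were ethylene-responsive factor 4-like (MELO3C007267.2, 0.223), SRC2-like (MELO3C015314.2, 0.245) and TIFY 10B (MELO3C022678.2, 0.285), all 3 lower in chilled and in recovered than in unchilled fruit.

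The less variable genes had closer counterparts. The nearest to MELO3C026025.2 was an aldehyde dehydrogenase (MELO3C002203.2, 0.0708), at 73.8, 75 and 65.3 in unchilled, 312, 343 and 324 in chilled, and 82.6, 92.8 and 82.8 in recovered libraries. DREB2C was nearest to a hydroxyproline-rich glycoprotein (MELO3C016931.2, 0.101) and to Nuclear receptor corepressor 1 (MELO3C002897.2, 0.116). MELO3C019763.2 was nearest to BnaA05g08570D protein (MELO3C003431.2, 0.106) and was also near to STRICTOSIDINE SYNTHASE-LIKE 10 (MELO3C009769.2, 0.12). Of the family proteins, MELO3C006144.2 was nearest to an inactive protein kinase (MELO3C003898.2, 0.103). That kinase stood at 14.8, 12.7 and 12.2 in recovered against 5.37, 5.67 and 6.23 in unchilled libraries. MELO3C005813.2 was nearest to a glycosyltransferase (MELO3C003488.2, 0.0827), which like it was lowest in recovered fruit, at 11.7, 12.6 and 11.6 against 19, 18.2 and 21.8 in unchilled libraries.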

How the data were processed

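Read counts and FPKM of 29980 genes in 9 libraries were deposited by the authors in one table. The study's methods describe trimming with Cutadapt, alignment to the DHL92 genome with HISAT2 and counting with HTSeq; the submitters' processing notes give cutadapt 1.15 and HISAT2 2.0.5. No strand setting is named in the labels or methods, so whether reads of genes overlapping on opposite strands were separated is not known. Reads shared by near-identical genes, or by genes overlapping on the same strand, could not be assigned here. The deposited counts were used without normalization, and the deposited FPKM equalled count over length and library total within 4.5e-11. Depth was 15508367 to 19011486 counts, and 8753 genes had no count.

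Tests used edgeR 4.0.16 in R 4.3.3 (glmQLFit and glmQLFTest, robust, TMM scaling, a single fit of all 9 libraries without a block) on genes with a mean FPKM above 1, as in the study's methods. Standard errors were obtained from the log2 fold change and the square root of F. Intervals and floors on counts cover counting error only. On simulated counts the fit was tested for recovery of known changes. The least different pair of replicates had a chi-square per degree of freedom of 6.85, so no library was a copy of another. What a replicate is beyond 3 fruits is not given, and p-values measure the spread between these samples.

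The 7 genes and all lists, which are words in the gene descriptions, were chosen with earlier results of these data known, and some descriptions that did not belong were removed. Named were the 7 genes, every tested gene of lists with at most 6, otherwise the 3 highest and 3 lowest called changes between chilled and unchilled fruit (level of at least 5, no overlap), the 3 genes most like each of the 7, and AP2/ERF neighbours. DEHYDRATION-INDUCED 19 falls under the rule for lists, and the CBF or DREB genes and overlapping models outside it were named by description or position.

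Alternatives were DESeq2 1.42.0, its size factors, library totals, no filter, filterByExpr, a replicate block, 2 groups only, limma 3.58.1 on log2(FPKM + 1) and log2(FPKM + 0.1), no fold threshold, a threshold of 0.01 on the adjusted p, and leaving out each library. Gene sequences were not used here.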

Additional observations from a re-analysis of the deposited data

How the results depend on the processing

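Each of 21 fold changes of the 7 genes had 20 alternatives. Of these alternative values, 397 kept their direction and side of the threshold and 10 turned sign. With the sign kept, 8 lost their call and 5 gained one. Among those that turned sign, CmCBF1 between recovered and chilled fruit without recovered replicate 1 also gained a call. The number of genes called higher kept its value in each comparison under all alternatives. Genes called lower between chilled and unchilled fruit were 1 in place of 3 at an adjusted p below 0.01. CmCBF1 also left these genes without chilled replicate 2, chilled replicate 3 or unchilled replicate 1. Between recovered and chilled fruit, CmCBF1 joined the genes called lower without recovered replicate 1. Between recovered and unchilled fruit, 2 genes in place of 1 were called lower with the replicate block, with limma at a pseudocount of 1 or 0.1 and without the fold threshold, and 0 at an adjusted p below 0.01; leaving out each library gave 0 to 2 (2 without recovered replicate 1, 0 without recovered replicate 2 or unchilled replicate 3). The genes gained were CmCBF1, at -2.70 with the replicate block (adjusted p = 0.0237), -2.53 and -3.07 with limma, and MELO3C005813.2 at -0.78 without the fold threshold. Same-numbered libraries had deviation correlations of -0.137 to 0.149, and differently numbered ones of -0.163 to 0.122. With 3 libraries a group, these values cannot settle whether the numbers pair the samples.

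Signs turned only for differences that had not been called with all libraries in the edgeR fit. Between recovered and chilled fruit, CmCBF1 was -1.50 without recovered replicate 1, and DREB1D-like was -0.06 with the replicate block, -0.01 with limma at 0.1, and -1.43, -0.26 and -0.35 without recovered replicate 1, chilled replicate 2 or chilled replicate 3; leaving out each library gave -1.50 to 1.49 and -1.43 to 1.11. Between recovered and unchilled fruit, MELO3C019763.2 was 0.03 with DESeq2 and with its size factors, and 0.07 and 0.02 without recovered replicate 1 or unchilled replicate 3 (range -0.09 to 0.07). The cause was not tested. With 3 libraries a group, CmCBF1 and DREB1D-like are limited by the spread between replicates, and DREB1D-like in stored fruit also by counts of 1 to 34.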
